A study of Mus musculus with 2 samples.

Results

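Interferon-stimulated genes are the genes that a cell switches on when interferon binds its receptors. The 37 examined here, given as a list of symbols and not by a threshold on their values, stand among 13211 genes listed for either of 2 single-cell RNA-sequencing (sc-RNA-seq) libraries of mouse bone marrow. All 37 were listed for the Col1a1fspKO library and 36 for the WT library, in which Iigp1 was not listed.

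The Col1a1fspKO library came from Fsp1-Cre;Col1a1flox/flox mice, in which Cre recombinase driven by the promoter of Fsp1 (S100a4) deletes the floxed gene of the type I collagen α1 chain. The control library came from mice labelled WT, with the detailed genotype Cre-negative;Col1a1flox/flox, so both groups carried the floxed alleles. Marrow was taken at 2 months of age, pooled from 2 mice per genotype, sorted for live cells and captured as 1 library per genotype. No treatment was given. With 1 library per genotype there was no replicate: no test between genotypes was possible, every interval below covers counting error only, and genotype, the mice pooled and the library preparation cannot be told apart.

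Type I and type III interferons act on promoters through interferon-stimulated response elements, which are bound by complexes that hold Stat2 and Irf9. Interferon gamma acts through gamma-activated sequences, and the target genes of the different interferons overlap widely. Their products block viral RNA and protein synthesis, attack the vacuoles of intracellular pathogens, feed peptides to major histocompatibility complex class I and reinforce interferon signalling itself. Plasmacytoid dendritic cells (pDCs) are specialised producers of type I interferon, and monocytes are among its most responsive targets.

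Promoter sequences show which members carry the letters of these elements. RefSeq windows of 250 bases before to 50 bases after the start site (build GRCm38.p6) were searched for 31 of the 37 members. Usp18, Zbp1, Parp14, Rtp4 and Ifi27l2a were not in the table. Iigp1 was not searched, since its chromosome was left out for the members, though not for all genes. The response element was searched as GAAANNGAAA or, on the other strand, TTTCNNTTTC, and the gamma-activated sequence as TTCNNNGAA, which reads the same on both strands. Of the 31 members, 17 (54.8%) held the response element, against 3.99% of all 27025 genes with a window. The gamma-activated sequence was held by 10 members (32.3%), against 9.55% of all genes. Both were held by 5 members and neither by 9. A match describes the letters only.

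The stretches below, which end before the annotated transcript, show 1 promoter for each of 6 roles among the members: the ubiquitin-like modifier Isg15 (chr4:156200819-156201048, minus strand), the RNA-binding Ifit1 (chr19:34640659-34640870, plus strand), the immunity-related GTPase Igtp (chr11:58199326-58199555, plus strand), the chemokine Cxcl10 (chr5:92348890-92349119, minus strand), the membrane tether Bst2 (chr8:71537473-71537702, minus strand) and the transcription factor Irf1 (chr11:53769784-53770013, plus strand). They run 5′ to 3′ on the strand of the gene. Capitals mark the response element in the first 5 and the gamma-activated sequence in Irf1, whose window held no response element.
Isg15: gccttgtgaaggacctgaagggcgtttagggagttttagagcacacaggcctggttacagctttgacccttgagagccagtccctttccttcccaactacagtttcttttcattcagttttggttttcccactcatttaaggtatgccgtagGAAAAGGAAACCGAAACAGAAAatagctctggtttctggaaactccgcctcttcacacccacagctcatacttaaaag
Ifit1: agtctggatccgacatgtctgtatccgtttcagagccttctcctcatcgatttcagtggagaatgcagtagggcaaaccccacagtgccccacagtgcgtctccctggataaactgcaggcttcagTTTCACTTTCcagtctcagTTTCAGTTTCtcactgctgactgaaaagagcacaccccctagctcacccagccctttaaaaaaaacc
Igtp: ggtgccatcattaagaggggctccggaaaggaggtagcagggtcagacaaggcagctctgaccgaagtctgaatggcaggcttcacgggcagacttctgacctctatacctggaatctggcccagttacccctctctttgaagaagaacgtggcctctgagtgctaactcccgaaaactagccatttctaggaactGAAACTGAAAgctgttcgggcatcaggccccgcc
Cxcl10: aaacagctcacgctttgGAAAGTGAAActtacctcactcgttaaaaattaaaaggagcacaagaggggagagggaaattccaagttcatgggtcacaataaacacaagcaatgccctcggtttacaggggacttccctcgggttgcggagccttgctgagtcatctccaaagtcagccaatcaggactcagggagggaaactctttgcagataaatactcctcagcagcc
Bst2: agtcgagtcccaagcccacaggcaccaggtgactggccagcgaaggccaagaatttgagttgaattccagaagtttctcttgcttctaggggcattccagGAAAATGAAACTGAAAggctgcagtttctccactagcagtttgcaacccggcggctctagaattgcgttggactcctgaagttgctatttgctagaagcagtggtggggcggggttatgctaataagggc
Irf1: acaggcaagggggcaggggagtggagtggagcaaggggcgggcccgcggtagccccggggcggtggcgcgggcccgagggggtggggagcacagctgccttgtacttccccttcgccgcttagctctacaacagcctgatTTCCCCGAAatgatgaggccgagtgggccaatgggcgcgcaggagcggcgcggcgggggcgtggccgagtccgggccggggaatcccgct

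Counted in bases before the start site, the 3 overlapping matches of Isg15 began at -78, -72 and -66. The 2 of Ifit1 began at -104 and -85, and the 2 overlapping matches of Bst2 at -130 and -124. The single match of Igtp began at -34 and that of Cxcl10 at -213, while the gamma-activated sequence of Irf1 began at -90. Members with and without the response element differed little in the genotype comparison described later. The 17 with a match had a median Col1a1fspKO over WT ratio of 1.38 (range 0.598 to 6.08), and the 14 without had a median of 1.35 (range 0.886 to 1.88).

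The Col1a1fspKO library held 1309 cells and 8647722 unique molecular identifiers (UMIs, one per captured RNA molecule). The WT library held 1169 cells and 8624469 UMIs. Median depth was 4954 and 5534 UMIs per cell, and 2 cell barcodes occurred in both libraries. Cells were placed in 10 classes by marker genes that excluded all members. Of all cells, 2393 were assigned, 84 of them close to the limit between classes, and 85 stayed unassigned. The split of neutrophils was close for 80 of 910 cells and that of B cells for 91 of 454. Siglech, a pDC receptor, stood at 1311 CPM (UMIs per 1000000) in pDC-like cells of Col1a1fspKO and 1.19 CPM elsewhere. Csf1r, the receptor for a monocyte growth factor, stood at 153 CPM in monocyte-like cells of Col1a1fspKO and 8.50 CPM elsewhere. Both were among the markers that set the classes, so these values describe the classes and are no check on them. The targeted gene could not check the labels, since Col1a1 had 3 UMIs in Col1a1fspKO and was not listed for WT.

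The summed level of the members differed strongly between classes, and in the same order at the top in both libraries. The sum is given per 10000 UMIs of the same cells. It was highest in pDC-like cells (67.9 in Col1a1fspKO, 45 cells; 75.3 in WT, 32 cells) and in monocyte-like cells (59.6, 231 cells; 53.1, 240 cells). T/NK-like cells, the lymphocytes with T or natural killer markers, stood at 33.3 and 21.5. Immature/mature B-like cells stood at 20.1 and 23.4, and pro-B/pre-B-like cells at 17.3 and 13.05.

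Mature neutrophil-like cells held 16.3 member UMIs per 10000 in Col1a1fspKO and 9.88 in WT, and progenitor-like cells held 14.2 and 11.4. The lowest sums were those of eosinophil/basophil-like cells (8.65 and 8.49), earlier neutrophil-like cells (6.18 and 4.67) and erythroid-like cells (4.76 and 4.33). The neighbours pDC-like and monocyte-like had counting intervals that did not overlap (64.6 to 71.3 against 58.3 to 60.8 in Col1a1fspKO; 70.9 to 79.9 against 51.9 to 54.3 in WT). In Col1a1fspKO those of mature neutrophil-like (15.4 to 17.2) and pro-B/pre-B-like cells (16.5 to 18.0) overlapped. Counting intervals leave out the spread between cells, and single pDC-like and monocyte-like cells overlapped widely. The 5th to 95th percentile of pDC-like cells ran from 33.6 to 111 in Col1a1fspKO and from 27.4 to 125 in WT. That of monocyte-like cells is given below.

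Monocyte-like cells carried 17.1% of all UMIs but 45.5% of the member UMIs in Col1a1fspKO, and 16.7% against 49.3% in WT. Their sum was 4.06-fold that of the other cells in Col1a1fspKO (interval 3.94 to 4.17) and 4.83-fold in WT (4.68 to 4.99). For pDC-like cells the same ratio was 3.22 (3.06 to 3.39) and 4.42 (4.16 to 4.70). Single cells spread widely within a class. The 5th to 95th percentile ran from 20.1 to 124 per 10000 among monocyte-like cells of Col1a1fspKO and from 15.01 to 125 in WT. No pDC-like, monocyte-like, T/NK-like or progenitor-like cell was without a member UMI, whereas 34 of 252 and 37 of 274 earlier neutrophil-like cells were.

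**Figure D1:**
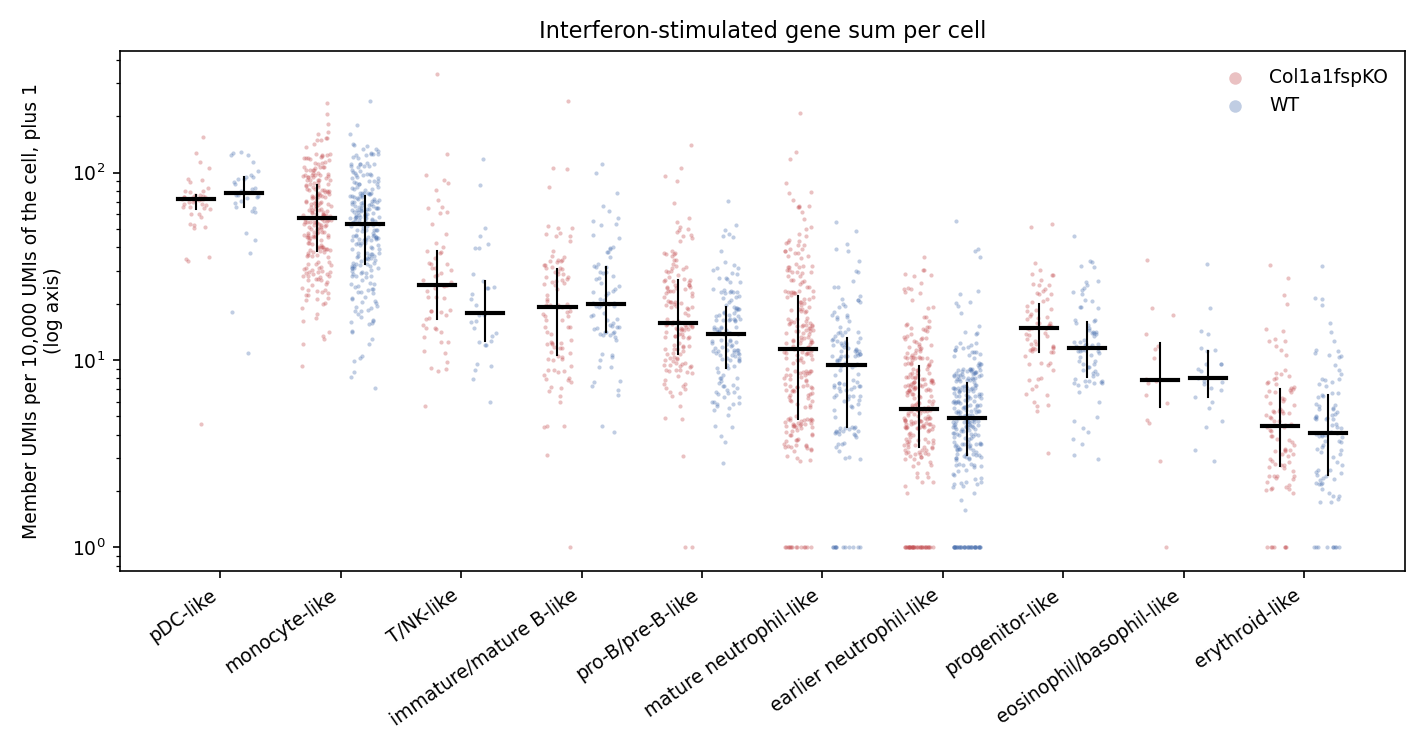
Member UMIs per 10000 UMIs of each cell, plus 1 (log axis), by cell class and library; each point is 1 cell, horizontal bars are medians and vertical bars the 25th to 75th percentile. The pDC-like and monocyte-like cells lie highest in both libraries (medians 71.0 and 55.9 per 10000 in Col1a1fspKO, 77.1 and 52.5 in WT), and the erythroid-like and earlier neutrophil-like cells lowest.

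A few genes make up most of this sum. Ifi27l2a, a small interferon-induced gene on chromosome 12 (chr12:103442167-103443680), gave 41.4% of the member UMIs in Col1a1fspKO and 42.7% in WT. Psmb8 gave 14.0% and 14.8%, and Bst2 6.87% and 7.46%. Ifi27l2a made up 58.7% of the sum in monocyte-like cells of Col1a1fspKO and 61.6% in WT. In pDC-like cells, Bst2 (tetherin, which holds budding virus at the cell surface and is a known surface antigen of these cells) made up 50.6% and 56.3%. Without these 3 members, monocyte-like cells led in both libraries, with 18.01 per 10000 in Col1a1fspKO and 14.5 in WT. In Col1a1fspKO the T/NK-like cells came next (16.95) and then the pDC-like cells (12.5), and in WT the pDC-like cells (13.8) and then the T/NK-like cells (10.35).

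The members did not share 1 pattern across classes. Of the 36 with at least 50 UMIs over both libraries, 20 had their highest CPM in the same class in both libraries, a share of 55.6% against 50% of all 9725 genes with as many UMIs. Among the 7 members led by monocyte-like cells (5.61% of all genes had this class first in both libraries) were Ifi27l2a, the oligoadenylate synthetase family members Oas1a and Oasl2, which sense viral RNA or resemble the enzymes that do, and the nucleotide hydrolase Samhd1. The others were Ifit3, Zbp1 and Ifih1. Ifi27l2a stood at 3498 and 3269 CPM there, and Samhd1 at 412 and 387 CPM. Oasl2 stood at 40.7 and 31.2 CPM in monocyte-like cells, against at most 14.1 CPM in any other class.

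The 5 members led by pDC-like cells (8.19% of all genes) were Bst2, Irf7, Stat2, Trim30a and Usp18. Bst2 reached 3432 CPM in Col1a1fspKO against 4237 CPM in WT, against 148 and 191 CPM in the next class. Irf7, the factor that drives type I interferon production in pDCs, stood at 237 and 250 CPM, against 115 and 101 CPM in monocyte-like cells. The place of Usp18, at 12.9 and 26.99 CPM, rests on 3 and 4 UMIs in pDC-like cells.

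T/NK-like cells led for 7 members (3.76% of all genes): the GTPases Gbp3, Gbp7, Igtp and Ifi47, and Ifit2, Xaf1 and Lgals3bp. The place of Ifit2 rests on 5 and 3 UMIs in these cells and that of Gbp3 on 6 and 3. The class held 184576 UMIs in WT, so the places of Igtp, Xaf1 and Lgals3bp there also rest on few UMIs. In Col1a1fspKO, Xaf1 stood at 61.6 CPM in T/NK-like cells, close to the 60.3 CPM in monocyte-like cells. Ifi47 stood at 139 and 75.8 CPM there and Gbp7 at 83.2 and 65.0 CPM. Igtp stood at 64.7 and 37.9 CPM, against at most 15.6 CPM elsewhere. Rsad2 (viperin, an antiviral radical enzyme) was the exception: erythroid-like cells led in both libraries with 34.8 and 32.15 CPM, a position that 5.82% of all genes shared. Isg15 was also found in erythroid-like cells, at 68.0 and 59.5 CPM. In earlier neutrophil-like cells it stood at 11.8 and 9.29 CPM.

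The other 16 members had different leading classes in the libraries. Isg15 was highest in T/NK-like cells of Col1a1fspKO (95.5 CPM, 31 UMIs) and in pDC-like cells of WT (94.5 CPM, 14 UMIs). Psmb8 was highest in T/NK-like cells of Col1a1fspKO (727 CPM) and pDC-like cells of WT (614 CPM), Psmb9 in T/NK-like (253 CPM) and pro-B/pre-B-like cells (216 CPM), and Tap1 in T/NK-like (108 CPM) and monocyte-like cells (63.04 CPM). Rtp4 led in mature neutrophil-like cells of Col1a1fspKO (90.03 CPM) and in monocyte-like cells of WT (61.7 CPM).

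**Figure D2:**
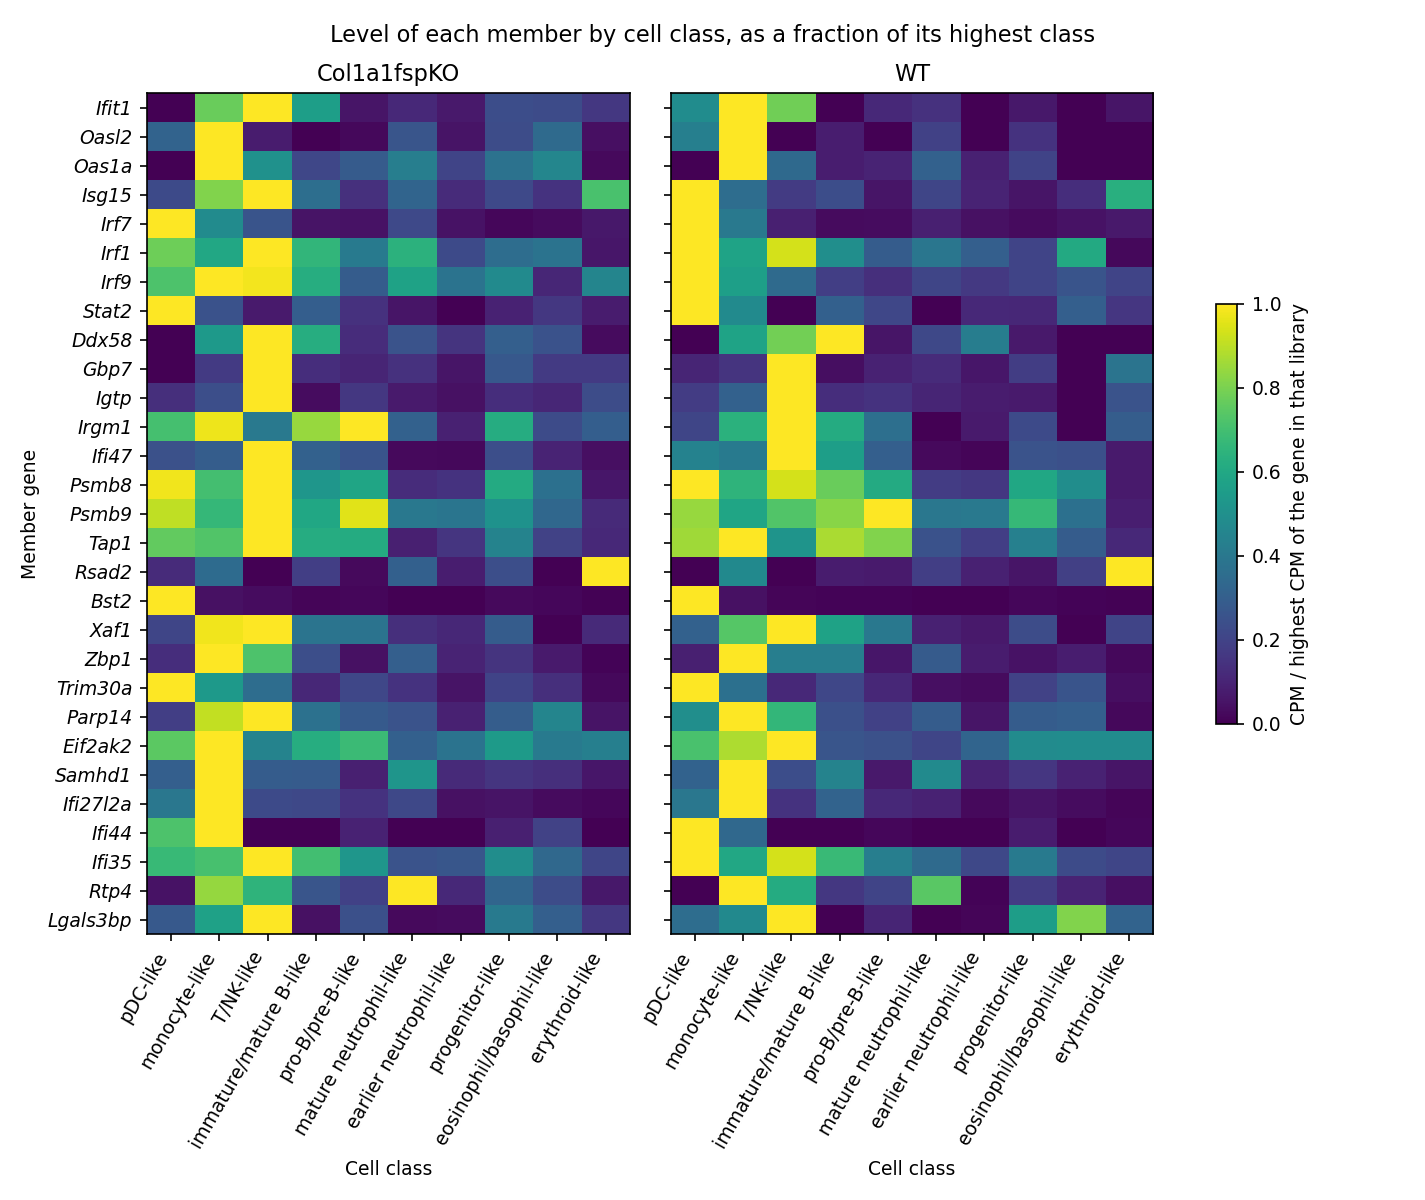
Level of the 29 members with at least 100 UMIs in each cell class, as CPM divided by the gene's highest class in that library (colour, 0 to 1), with Col1a1fspKO at left and WT at right. Bst2 is bright almost only in pDC-like cells. Ifi27l2a, Oasl2 and Samhd1 are brightest in monocyte-like cells, Igtp and Gbp7 in T/NK-like cells, and Rsad2 in erythroid-like cells. Samhd1 comes next in mature neutrophil-like cells (214 and 185 CPM).

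The genotype comparison asks whether marrow cells of Col1a1fspKO and WT mice differed in these genes. Over all cells, the members held 22.3 UMIs per 10000 in Col1a1fspKO (interval 22.03 to 22.7) and 18.0 in WT (17.8 to 18.3), a ratio of 1.24 (1.21 to 1.27). Of the 36 members with at least 50 UMIs, 32 had a ratio above 1, against 41.6% of all 9725 genes with as many. The median ratio of the 36 was 1.39, and that of all genes 0.973. The counting interval lay above 1 for 26 members (72.2%; 7.12% of all genes) and below 1 for Ifih1 and Stat2 (12.4% of all genes).

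A fold of 1.5 or more in favour of Col1a1fspKO was found for 15 of the 36 members (41.7%), against 3% of all genes. One member, Ifih1, was lower by that fold, against 2.93% of all genes. Genes with few UMIs pass a fold by counting error more often, so members were also set beside genes of like abundance. Among genes with 50 to under 300 UMIs, 9 of 19 members passed (5.13% of all such genes), and among those with 300 to under 1000 UMIs 6 of 12 did (1.02%). None of the 5 members with 1000 UMIs or more did (0.697%). These 5, Ifi27l2a, Psmb8, Bst2, Psmb9 and Samhd1, all had ratios between 1.14 and 1.20.

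**Figure D3:**
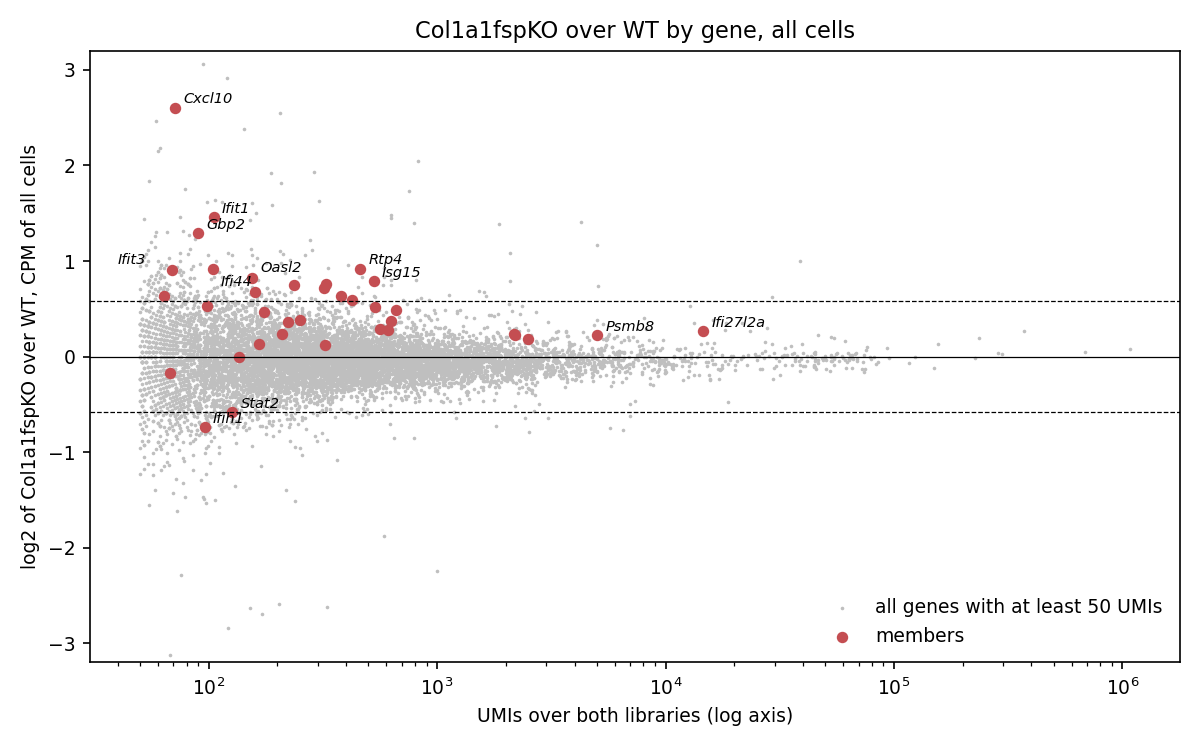
Log2 of Col1a1fspKO over WT (CPM of all cells) against the UMIs of each gene over both libraries (log axis), for genes with at least 50 UMIs; grey points are all genes, red points the 36 members, and dashed lines mark a fold of 1.5 either way. The 15 members past the fold lie above the upper line and Ifih1 below the lower one, and 2 genes fall outside the plotted range.

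The IFIT family, which acts on viral RNA, was split. Ifit1, which binds foreign RNA ends, stood at 8.90 CPM in Col1a1fspKO against 3.25 CPM in WT (77 and 28 UMIs), a ratio of 2.74 (1.76 to 4.39). A UMI of it was seen in 3.44% and 1.80% of cells. Ifit3 stood at 5.20 and 2.78 CPM, a ratio of 1.87 (1.12 to 3.21). Ifit2, of the same family and the same region of chromosome 19, stood at 3.70 and 4.17 CPM, a ratio of 0.886 (0.533 to 1.47).

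Among the oligoadenylate synthetase genes, Oasl2 stood at 11.4 CPM in Col1a1fspKO against 6.49 CPM in WT, a ratio of 1.76 (1.26 to 2.49). Oas1a, at 11.7 and 8.46 CPM, had a ratio of 1.38 (1.01 to 1.89). The RNA sensors that start interferon production did not follow. Ifih1 (MDA5) stood at 4.16 CPM in Col1a1fspKO against 6.96 CPM in WT, a ratio of 0.598 (0.384 to 0.919), and Ddx58 (RIG-I) at 7.86 and 7.88 CPM, a ratio of 0.997 (0.702 to 1.42). Reads of Ifit3, Oas1a, Trim30a, Ifi27l2a and the Gbp genes can be shared with near copies, so the level of each is uncertain.

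The Isg15 system, in which Isg15 is joined to other proteins and Usp18 takes it off, was higher as a pair. Isg15 stood at 38.6 CPM in Col1a1fspKO against 22.4 CPM in WT (334 and 193 UMIs), a ratio of 1.73 (1.44 to 2.07). It was seen in 13.8% and 9.41% of cells. Usp18, with 39 and 25 UMIs, had a ratio of 1.56 with an interval that held 1 (0.918 to 2.68).

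The 4 transcription factors split. Irf1 stood at 23.7 CPM in Col1a1fspKO against 14.0 CPM in WT, a ratio of 1.69 (1.34 to 2.13). Irf9, the partner of Stat2, stood at 36.3 and 25.3 CPM, a ratio of 1.44 (1.20 to 1.72). Irf7 stood at 40.9 and 31.7 CPM, a ratio of 1.29 (1.10 to 1.52). Stat2 was on the other side, at 5.90 CPM in Col1a1fspKO against 8.81 CPM in WT, a ratio of 0.669 (0.460 to 0.967). Its highest level was in pDC-like cells of both libraries, at 43.1 and 40.5 CPM.

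The 7 GTPases, which act on the membranes around intracellular pathogens, had a summed ratio of 1.62 (1.44 to 1.83), with the unlisted Iigp1 counted at 0 in WT. Gbp2 stood at 7.40 CPM in Col1a1fspKO against 3.01 CPM in WT, a ratio of 2.45 (1.53 to 4.04). Irgm1 stood at 17.1 and 10.2 CPM (1.68, 1.28 to 2.21), Igtp at 11.3 and 7.07 CPM (1.60, 1.15 to 2.24) and Ifi47 at 26.7 and 17.2 CPM (1.56, 1.26 to 1.93). Gbp3 and Gbp7 had ratios of 1.45 and 1.29 with intervals that held 1. Iigp1 had 25 UMIs in 12 cells of Col1a1fspKO, 9 of them pro-B/pre-B-like or progenitor-like, and was not listed for WT. The WT table listed 381 genes seen in 3 cells but 71 seen in 2 and 23 seen in 1, so a gene seen in few cells can be missing from it, and no fold was taken.

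The 3 genes of peptide processing for class I lie side by side on chromosome 17. Psmb8, a subunit of the immunoproteasome, stood at 312 CPM in Col1a1fspKO against 267 CPM in WT, a ratio of 1.17 (1.10 to 1.23). Psmb9, another subunit, stood at 136 and 117 CPM, a ratio of 1.17 (1.07 to 1.27). Tap1, of the peptide transporter, stood at 44.8 and 32.0 CPM, a ratio of 1.40 (1.20 to 1.64). All 3 intervals lay above 1, at folds below those of Isg15 and Ifit1.

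Cxcl10, the chemokine that attracts activated T cells, had the largest ratio of all members: 7.05 CPM in Col1a1fspKO against 1.16 CPM in WT, a ratio of 6.08 (3.09 to 13.3). It was carried by 18 of 1309 cells in Col1a1fspKO and 9 of 1169 in WT. One progenitor-like cell held 19 of the 61 UMIs (31.1%), so the interval, which treats UMIs as independent, is too narrow. Of the 18 cells, 9 were monocyte-like and 4 T/NK-like. The limit on the interval is not particular to Cxcl10. In Col1a1fspKO a single cell held 9 of the 77 UMIs of Ifit1, 6 of the 45 of Ifit3 and 8 of the 64 of Gbp2. In WT a single cell held 5 of 28, 5 of 24 and 3 of 26.

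The remaining effectors ranged from 1.09 to 1.89. Rtp4, a chaperone-like interferon-induced gene, stood at 34.9 CPM in Col1a1fspKO against 18.4 CPM in WT, a ratio of 1.89 (1.56 to 2.31). Ifi44 stood at 7.86 and 4.17 CPM (1.88, 1.24 to 2.91), Xaf1, linked to cell death, at 23.1 and 14.0 CPM (1.65, 1.31 to 2.08) and Zbp1, a sensor of nucleic acid in the Z form, at 29.4 and 19.5 CPM (1.51, 1.24 to 1.84). Ratios between 1.14 and 1.31 with intervals above 1 were found for Parp14 (16.5 and 12.6 CPM), Trim30a (35.7 and 29.3 CPM), Ifi35 (38.6 and 31.9 CPM), Ifi27l2a (926 and 769 CPM), Samhd1 (136 and 115 CPM) and Bst2 (153 and 135 CPM). The intervals held 1 for Lgals3bp (13.1 and 11.1 CPM), Rsad2 (10.1 and 9.16 CPM) and Eif2ak2, the RNA-activated kinase PKR (19.5 and 18.0 CPM).

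**Figure D4:**
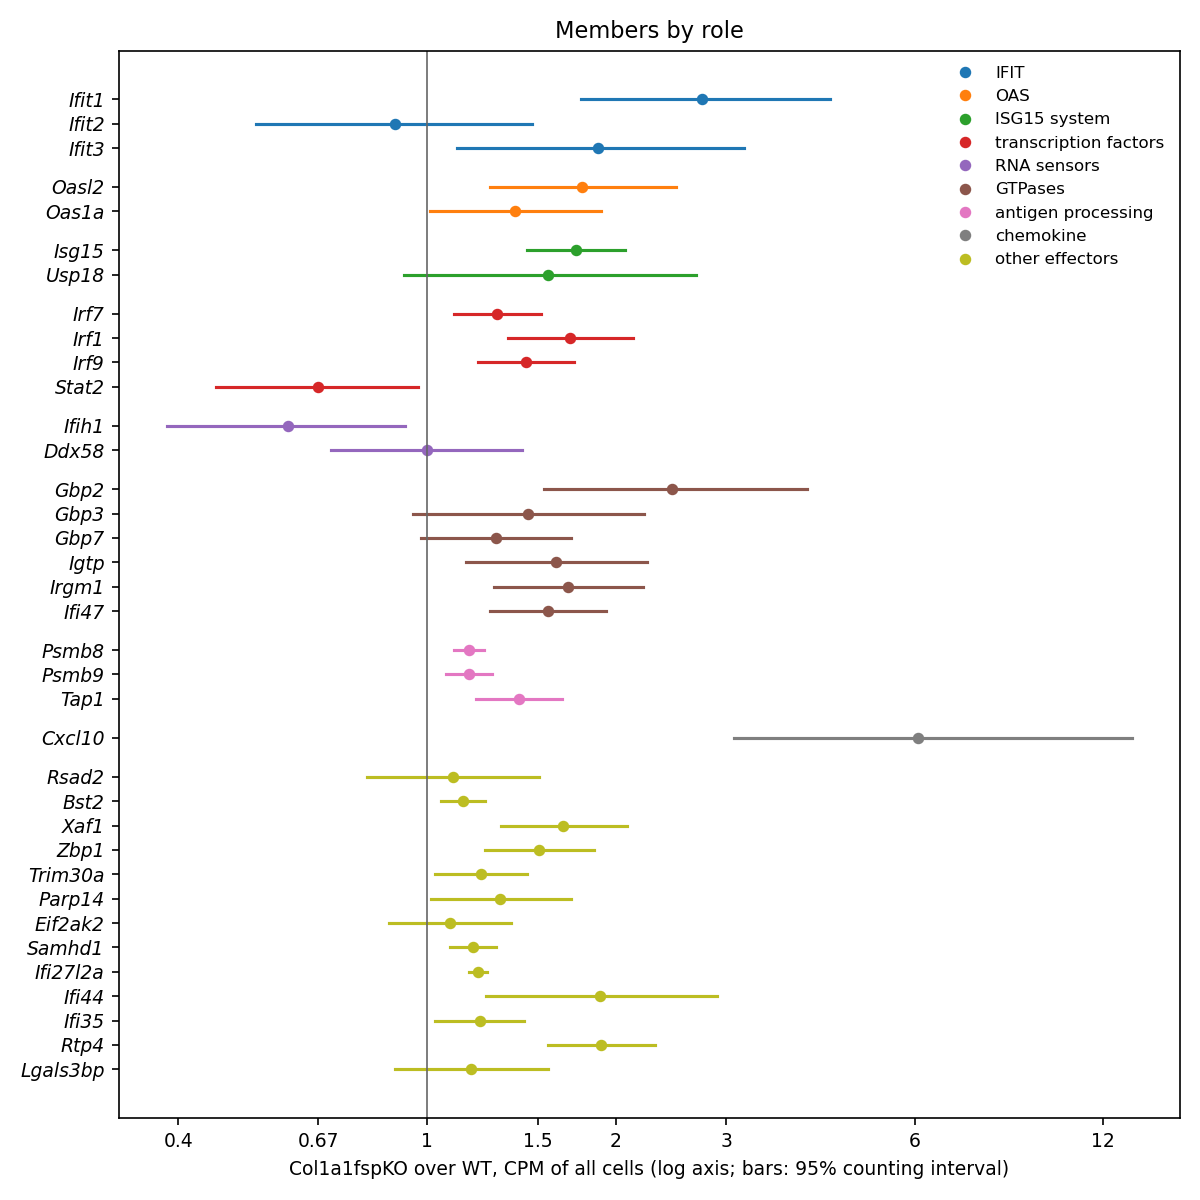
Ratio of Col1a1fspKO over WT (CPM of all cells, log axis) for the 36 members with at least 50 UMIs, coloured by role; bars are 95% counting intervals. Most points lie right of 1, from Eif2ak2 at 1.09 to Cxcl10 at 6.08, while Ifit2, Stat2, Ifih1 and Ddx58 lie left of it or on it.

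The libraries differed in their mix of classes, with 246 mature neutrophil-like cells in Col1a1fspKO against 138 in WT and 61 T/NK-like against 33. When WT levels were weighted by the class mix of Col1a1fspKO, the ratio of the sum was 1.16 and the median ratio of the 36 members 1.34. Then Ifih1 and Stat2 were lower by 1.5-fold (2.9% of all genes), and 11 members were higher by it (30.6%, against 2.34% of all genes): Cxcl10, Gbp2, Ifi44, Ifit1, Ifit3, Irf1, Irgm1, Isg15, Oasl2, Rtp4 and Xaf1. Bst2 turned to the other side under this weighting, from 1.14 to 0.875. The libraries held 45 and 32 pDC-like cells, and within pDC-like and monocyte-like cells the ratio of Bst2 was 0.810 and 0.777. The part of each class in this change was not tested.

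By class, the sum was higher in Col1a1fspKO in most but not in all. The ratio was 1.65 in mature neutrophil-like cells (1.49 to 1.83) and 1.55 in T/NK-like cells (1.38 to 1.74). It was 1.32 in both pro-B/pre-B-like (1.24 to 1.41) and earlier neutrophil-like cells (1.20 to 1.46), 1.246 in progenitor-like cells (1.15 to 1.35) and 1.12 in monocyte-like cells (1.09 to 1.16). Intervals held 1 in erythroid-like (1.10, 0.976 to 1.24) and eosinophil/basophil-like cells. They lay below 1 in pDC-like cells (0.901, 0.834 to 0.974) and in immature/mature B-like cells (0.855, 0.780 to 0.938).

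Ifi27l2a weighed on several of these values. Without it the ratio was 1.303 in mature neutrophil-like cells and 1.21 in monocyte-like cells. It was 0.957 in immature/mature B-like cells, with an interval that then held 1 (0.849 to 1.08), and 1.09 in that class when cells were clustered rather than gated. In pDC-like cells it stayed below 1, at 0.866 without Ifi27l2a. Ifi27l2a itself stood at 758 CPM in mature neutrophil-like cells of Col1a1fspKO and 319 CPM in WT (2.38, 1.998 to 2.85). In immature/mature B-like cells it stood at 752 CPM and 1034 CPM (0.727, 0.628 to 0.840).

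**Figure D5:**
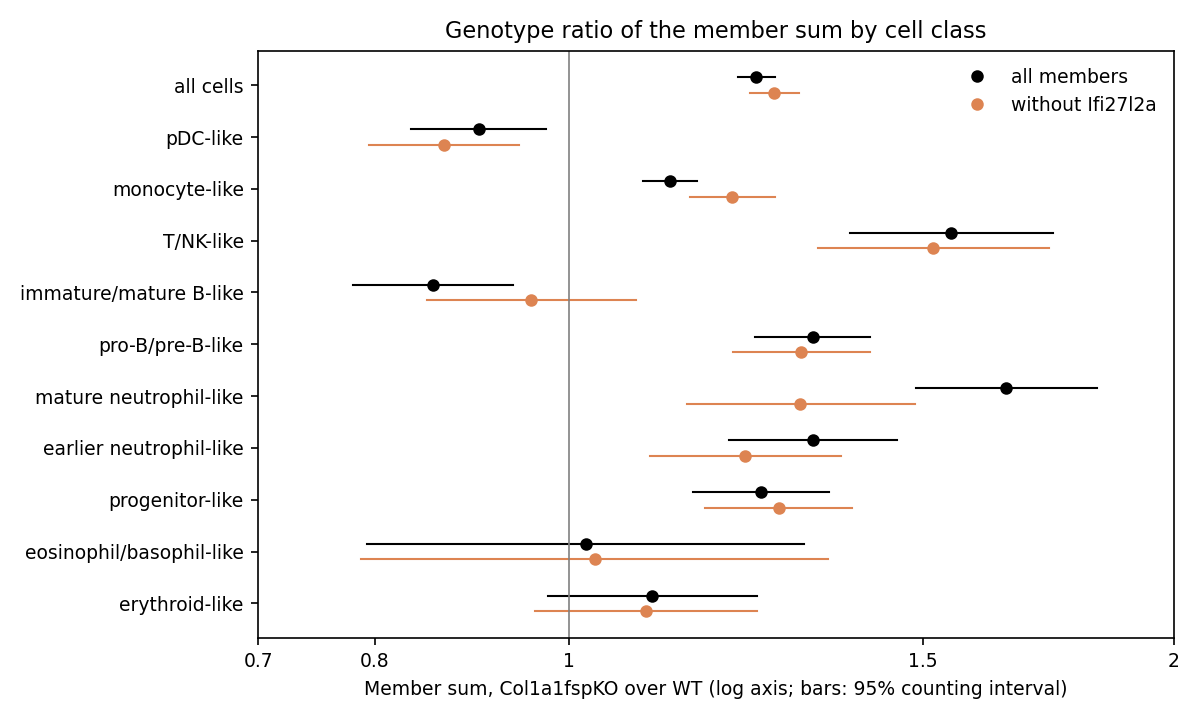
Ratio of the member sum, Col1a1fspKO over WT (log axis), for all cells and each class, with all members (black) and without Ifi27l2a (orange); bars are 95% counting intervals. All members together lie right of 1 in 8 of 10 classes and left of it in pDC-like (0.901) and immature/mature B-like cells (0.855).

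In monocyte-like cells, 25 members had at least 50 UMIs, and 23 of them had a ratio above 1, against 48.1% of all genes. The 1.5-fold was reached by 5 (20%, against 3.03% of all genes): Ifi44, Ifit1, Ifit3, Isg15 and Xaf1. The intervals of Ifit1 (0.962 to 3.13) and Ifit3 (0.864 to 2.80) held 1, and that of Ifi44 lay above it (1.36 to 3.86). Isg15 stood at 77.3 CPM in Col1a1fspKO against 33.9 CPM in WT (2.28, 1.62 to 3.25), with a UMI in 25.1% and 12.9% of these cells. Xaf1 stood at 60.3 and 31.9 CPM (1.89, 1.31 to 2.77). Bst2 was lower, at 148 and 191 CPM (0.777, 0.647 to 0.931), and was the 1 member whose interval lay below 1 (6.06% of all genes).

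In mature neutrophil-like cells, 3 of 6 members with enough UMIs reached 1.5-fold (6.15% of all genes): Ifi27l2a, Irf7 and Rtp4. Irf7 stood at 52.1 CPM in Col1a1fspKO against 21.9 CPM in WT (2.38, 1.21 to 5.11), and Rtp4 at 90.03 and 45.8 CPM (1.97, 1.22 to 3.29). In T/NK-like cells, 4 of 6 did (8.17%), and of these Ifi27l2a and Psmb9 had intervals above 1. There Isg15, below the limit on UMIs, stood at 95.5 and 16.3 CPM (31 and 3 UMIs). One T/NK-like cell of Col1a1fspKO had 10 of 16 core members detected. It held 8 of the 31 Isg15 UMIs and 9 of the 14 Cxcl10 UMIs of this class. Without the 1% of cells with the highest sum, the ratio of the sum in T/NK-like cells was 1.42. Pro-B/pre-B-like cells had 4 of 10 (4.36%): Bst2, Ifi47, Irgm1 and Trim30a. The intervals of Ifi47 and Trim30a held 1.

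Progenitor-like cells had 3 of 10 past the fold (3.84% of all genes) and earlier neutrophil-like cells 2 of 6 (2.62%), in both cases with Irf9 among them. The interval of Irf9 held 1 in both classes. Of these calls, only Tap1 in progenitor-like and Ifi27l2a in earlier neutrophil-like cells had intervals above 1. Ddx58, below the limit on UMIs, had an interval below 1 in earlier neutrophil-like cells. Erythroid-like cells had 2 of 8 past the fold (3.61%), with intervals that held 1. No member reached 1.5-fold in pDC-like cells, where 6 had enough UMIs (8.43% of all genes), or in immature/mature B-like cells, where 5 had (2.98%). In all cells but the monocyte-like, 12 of 30 did (3.51%). In pDC-like cells Bst2 stood at 3432 CPM in Col1a1fspKO against 4237 CPM in WT (0.810, 0.729 to 0.901), while the intervals of Irf7 (0.615 to 1.48), Ifi27l2a (0.892 to 1.29) and Psmb8 (0.892 to 1.51) held 1. Isg15, below the limit on UMIs, was also lower in pDC-like cells, at 21.6 and 94.5 CPM (5 and 14 UMIs; 0.228, 0.0643 to 0.671), and the 14 UMIs of WT lay in 3 cells. In immature/mature B-like cells, Psmb8 (0.803, 0.651 to 0.991) and Samhd1 (0.687, 0.473 to 0.994) were lower along with Ifi27l2a (3 of 5, against 7.22% of all genes). Not every role was lower there. Summed by role, the effectors that include Ifi27l2a and Samhd1 had a ratio of 0.769 (0.682 to 0.868). The transcription factors had 48 and 23 UMIs, a ratio of 1.80 (1.07 to 3.10). The IFIT members had 12 UMIs in Col1a1fspKO and 0 in WT. For the other roles with a ratio the interval held 1.

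Whether the members appear together in the same cells was read from 16 core members after each cell was thinned to 2500 UMIs, so that depth was equal and no cell was left out. At least 3 core members were detected in 81 of 1309 Col1a1fspKO cells (6.19%, interval 4.94 to 7.63) and 43 of 1169 WT cells (3.68%, 2.67 to 4.92). At full depth the shares were 16.8% and 10.9%. Most such cells were monocyte-like, 45 of 231 (19.5%) in Col1a1fspKO and 35 of 240 (14.6%) in WT, with intervals that overlapped. T/NK-like cells had 8 of 61 and 1 of 33. Among earlier neutrophil-like cells there were 1 of 252 in Col1a1fspKO and 0 of 274 in WT. By the limit of 3 counts a count of 0 allows a share of up to 1.09%, and the Clopper-Pearson upper limit is 1.34%.

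Cells with an Ifit UMI often carried Isg15. At 2500 UMIs, Isg15 was seen in 24 of 46 such cells of Col1a1fspKO (52.2%) and in 5.78% of the 1263 others. In WT it was seen in 8 of 23 (34.8%) and in 4.36% of the 1146 others. Within monocyte-like cells the shares were 68.4% against 12.7% in Col1a1fspKO and 66.7% against 5.26% in WT. Irf7 behaved alike in monocyte-like cells, at 63.2% against 18.4% and 58.3% against 16.7%. Rtp4 was seen in 42.1% against 14.2% in Col1a1fspKO and 50% against 12.7% in WT. Oasl2 was seen in 31.6% against 6.60% and 50% against 7.46%. Zbp1 was seen in 57.9% against 18.4% in Col1a1fspKO and 25% against 14.9% in WT, where the intervals overlapped. For Usp18, seen in 2 cells with an Ifit UMI per library, the shares were 10.5% against 1.42% and 16.7% against 1.75%, with intervals that overlapped. For Psmb8 the shares were 73.7% against 68.4% in Col1a1fspKO and 66.7% against 65.4% in WT. For Ifi44 they were 10.5% (2 of 19 cells) against 7.55% in Col1a1fspKO, with intervals that overlapped, and 33.3% (4 of 12 cells) against 3.95% in WT. The cell with most core members was monocyte-like in both libraries, with 13 and 14 detected at full depth.

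The genes upstream of the members differed less. Of 21 interferon genes, Ifng, the gene of interferon gamma, was the 1 listed, with 9 UMIs in 5 T/NK-like cells of Col1a1fspKO and no entry for WT. Of 16 receptor and signalling genes with at least 50 UMIs, none reached 1.5-fold in either direction, and their median ratio was 1.06. The receptor chain Ifnar1 stood at 25.7 CPM in Col1a1fspKO against 20.4 CPM in WT (1.26, 1.03 to 1.54). Of 13 sensing genes, none passed either, with a median of 1.06 and Myd88, an adaptor of Toll-like receptors, highest at 1.47 (1.20 to 1.82).

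Of 37 other interferon-induced genes with at least 50 UMIs, 31 had a ratio above 1 (against 41.6% of all genes) and 4 reached 1.5-fold (against 3%): Oas2, Gbp4, Irgm2 and Nlrc5. The intervals of Oas2 (0.971 to 2.81) and Irgm2 (0.9504 to 2.82) held 1. None was lower by that fold, and their median ratio was 1.11. Gbp4 stood at 4.74 CPM in Col1a1fspKO against 1.97 CPM in WT (2.41, 1.34 to 4.52). Ly6e was lower, at 663 and 707 CPM (0.937, 0.904 to 0.972).

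Outside the members, 3356 genes with at least 500 UMIs were compared with the member sum by Spearman's rho over 10 classes. The 10 with the most similar class pattern were Psme2b, Ptpn1, Rnf114, Dock2, Psme2, Pycard, Nek7, Anxa6, B2m and Btg1. The lower rho of the libraries lay between 0.855 and 0.927. Psme2 is also among the other interferon-induced genes above. The classes share their library and depth, so rho is a description.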

How the data were processed

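Single-cell 3′ libraries (10x v2) of sorted live bone marrow cells were compared, 1 per genotype. The tables deposited by the authors hold unnormalised UMI counts (genes by cells). The submitters' processing notes name Cell Ranger, Seurat 3.5.3 and build mm10. The stated filters (200 to 7000 genes, at most 10% mitochondrial) removed 0 further cells here. Nearly all listed genes occurred in 3 or more cells, so genes in fewer are mostly missing from each table.

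Counts were summed per class and library in Python 3.11.15 (numpy 2.4.6, pandas 2.3.3) and scaled by all UMIs. Cells were classed by the highest z-scored marker mean (score at least 0.5, margin at least 0.25). This scoring was chosen after the files were seen, and the members and gene lists were chosen with earlier results of these data known. Intervals (95%) are exact Poisson or Clopper-Pearson (scipy 1.17.1). PCR and cell-to-cell spread are not covered. Ratios were read for genes with at least 50 UMIs over both libraries. All members are accounted for, and those with 100 UMIs or more were given values. Non-members are from set lists or the pattern search, except Col1a1, H2-K1, H2-D1 and Cxcl9. Scrublet (scanpy 1.11.5) marked 5 cells per library as doublets, which were kept. The ratio intervals and the gate were also run on simulated data. The intervals held the set fold for 93.5% of changed genes over all cells and 97.5% in monocyte-like cells. The gate returned 99.7% of cells to their class. These data were drawn from the counting model of the intervals and from the class means. They held no cell-to-cell spread within a class, so they cannot show how either performs on real cells. Alternatives are in the closing section.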

Additional observations from a re-analysis of the deposited data

Results flagged for a closer look

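The genotype ratio of the member sum lay on opposite sides of 1 in different cell classes, and this difference between classes was not tested. In pDC-like cells Col1a1fspKO over WT was 0.901, and in immature/mature B-like cells 0.855, whereas it was above 1 in the other 8 classes. The classes hold 45 and 32 pDC-like cells and 99 and 77 immature/mature B-like cells. Bst2 gave 50.6% and 56.3% of the pDC-like sum, and without Ifi27l2a, Psmb8 and Bst2 the pDC-like ratio was 0.908 with an interval that held 1 (0.757 to 1.09). Median depth in immature/mature B-like cells was 3238 UMIs in Col1a1fspKO and 3807 in WT. The part of depth and of the limits between classes in these values was not tested.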

How the results depend on the processing

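No paired analysis was possible because each genotype had 1 library and the labels give no replicate numbers, and no replicate could be left out. Of 297 values under alternatives, 239 stayed within the counting interval, or for counts within 1.5-fold. The cause of the changes was not tested. The sum in immature/mature B-like cells turned from 0.855 to 1.09 with clustering and to 1.05 without the 3 members with most UMIs. It was 0.732 with a shared UMI minimum, 0.959 as a mean over cells and 0.957 without Ifi27l2a. At the same class mix Bst2 turned from 1.14 to 0.875. Over all cells the sum was 1.17 as a mean over cells, 1.33 without the 3 members and 1.16 at the same class mix. In monocyte-like cells it was 1.17 with clustering, 1.16 with the stricter gate, 1.24 without the 3 members and 1.21 without Ifi27l2a. In mature neutrophil-like cells it was 1.40 and 1.303 without those, and in pro-B/pre-B-like cells 1.21 with clustering.

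Monocyte-like over the other cells, in Col1a1fspKO then WT, was 3.58 and 3.99 with clustering, 3.33 and 4.06 without the 20 most abundant genes, 3.59 and 4.38 as a mean over cells, and 2.79 and 3.10 without the 3 members. In Col1a1fspKO it was 4.23 with the shared minimum and 4.20 with the stricter gate. For pDC-like cells it was 2.64 and 3.69, 2.89 and 3.77, and 1.504 and 2.22 under the same 3 changes, and 4.86 in WT with clustering.

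The 15 members at 1.5-fold or more were 3 at 2-fold and 5 in monocyte-like cells alone. They were 12 without the 1% of cells with the highest sum. The 1 lower member became 2 with the shared minimum, at a lower fold or at the same class mix, and 0 with 100 UMIs, at 2-fold or in monocyte-like cells. The 5 of monocyte-like cells became 8 with clustering, 13 at the lower fold, 2 at 2-fold or with 100 UMIs, and 3 without the 1% of cells with the highest sum. The 0 lower there became 2 with 20 UMIs or no minimum and 1 at the lower fold. Cells with core members were 13.9% and 10.8% at 2 or more, 3.36% and 1.45% at 4 or more, and 16.8% and 10.9% unthinned. The class mix, the settings without Ifi27l2a or the highest 1% of cells, and monocyte-like cells alone were chosen after seeing the data.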

Other observations

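The genes that receive the peptides handled by Psmb8, Psmb9 and Tap1 also stood higher in Col1a1fspKO. They were chosen after their values were seen. B2m, the light chain of class I molecules, stood at 2056 CPM in Col1a1fspKO against 1331 CPM in WT, a ratio of 1.54 (1.51 to 1.58). Its ratio was above 1 in all 10 classes, from 1.27 in immature/mature B-like to 2.53 in erythroid-like cells, where it stood at 1214 and 481 CPM. The heavy chain genes H2-K1 (1.67, 1.58 to 1.77) and H2-D1 (1.45, 1.40 to 1.4998) were also higher over all cells, and their reads can be shared with other class I genes. In immature/mature B-like cells H2-D1 had a ratio of 0.985 (0.874 to 1.11).

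Cxcl9, a chemokine of the same receptor as Cxcl10, had 10 UMIs in 5 cells of Col1a1fspKO, 4 of them monocyte-like, and Gbp5 had 10 UMIs in 9 cells. Neither was listed for WT, as was the case for Iigp1 and Ifng.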
